A study of Mus musculus with 2 samples.

Results

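The counted microRNA (miRNA) genes Gm25301, Gm24083 and Mir425, were followed in the small RNA of mouse embryonic facial prominence, the tissue that builds the face and jaws. They are 3 of the 1973 genes in the deposited counts and were taken by Ensembl gene identifier: Gm25301 lies opposite Mir378a, Gm24083 lies opposite Mir191, and Mir425 is the neighbour of Mir191. They were chosen by their read counts on each strand in these libraries, so the strand split and the levels below are descriptions without a test. All 3 had at least 10 reads in each library, the minimum for calling a gene detected, as did 333 of the 1973 genes. The samples form 1 group of 2 biological replicates of strain B6NCrl at embryonic day 15.5, with male and female embryos pooled, 78 in replicate 1 and 62 in replicate 2, and no treatment is given in the labels. A pool shows the average of its embryos and tissue, so more cells of a type and more miRNA per cell cannot be told apart. Replicate 1 held 2978463 reads in counted genes and replicate 2 held 6408008, so replicate 2 measures each gene with less counting error.

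A miRNA is cut from a hairpin in a longer transcript, and bases 2 to 8 of the mature strand, the seed, pair with target messenger RNAs. The direction in which the hairpin is transcribed fixes which sequence is made, so a hairpin and its antisense copy give different miRNAs. Mir378a sits inside Ppargc1b, the gene of a transcriptional coactivator of mitochondrial biogenesis, and in mice it is known from muscle and energy metabolism. Mir191 and Mir425 are made from a common transcript and are expressed in many tissues, and miR-191 is a widely used reference for miRNA measurements by PCR.

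The annotation of the chromosome 9 locus gives the strand of the miRNA, and the sequences show how Gm24083 relates to it. The Mir191 hairpin lies at chr9:108568319-108568392 on the plus strand of GRCm38 (equal to mm10), and Gm24083 covers chr9:108568295-108568414 on the minus strand, 24 and 22 bases past either end of that hairpin. The whole hairpin is found once in the reverse complement of Gm24083, and neither mature arm occurs in the sequence of Gm24083 itself. Capitals mark the mature arms in the hairpins and, in Gm24083, the stretches complementary to the arms of Mir191, in sequences from RefSeq (GRCm38.p6) and GENCODE M21 (Gm24083).
Mir191 hairpin: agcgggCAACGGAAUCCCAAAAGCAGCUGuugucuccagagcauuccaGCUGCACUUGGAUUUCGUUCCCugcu
Gm24083: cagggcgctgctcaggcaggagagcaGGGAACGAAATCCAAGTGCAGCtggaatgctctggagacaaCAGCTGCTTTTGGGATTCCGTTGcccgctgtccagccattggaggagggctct
Mir425 hairpin: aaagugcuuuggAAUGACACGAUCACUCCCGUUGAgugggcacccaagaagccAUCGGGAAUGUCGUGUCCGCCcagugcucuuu

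The mature miRNAs of the locus, from RefSeq, are shown with the seed in capitals because the seed separates Mir191 from Mir425 and ties Mir425 to another gene.
miR-191-5p: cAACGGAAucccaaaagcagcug
miR-191-3p: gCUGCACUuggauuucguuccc
miR-425-5p: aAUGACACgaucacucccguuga
miR-425-3p: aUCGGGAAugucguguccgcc
miR-489-3p: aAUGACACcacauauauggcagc
The seeds of both Mir191 arms were found in no other mouse gene of the RefSeq miRNA table. The seed of miR-425-5p is shared with miR-489-3p, from Mir489 on chromosome 6. Mir489 had 2 reads in replicate 1 and 0 in replicate 2, which is at the floor of 3 reads (1.00 CPM, reads per 1000000 in counted genes, in replicate 1 and 0.470 in replicate 2).

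Mir425 lies at chr9:108568777-108568861 on the plus strand, 384 bases past the end of Mir191, and both hairpins overlap an annotated exon of the noncoding gene 4833445I07Rik on their own strand. The gene Dalrd3 starts 1024 bases past the end of Mir425. Gm25301 covers 61397813 to 61397925 of chromosome 18 on the plus strand, and Mir378a covers 61397835 to 61397900 on the minus strand, in an intron of Ppargc1b, which is read from the minus strand too. The Mir378a hairpin is found once in the reverse complement of Gm25301 and not in Gm25301 itself. Neither Mir378a nor Mir191 has a row of its own in the deposited counts. The opposite-strand reads of Gm25301 and Gm24083 are therefore read here as those of Mir378a and Mir191. The counts do not give the position of a read within its hairpin, so the 5p and 3p arms cannot be separated.

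**Figure D1:**
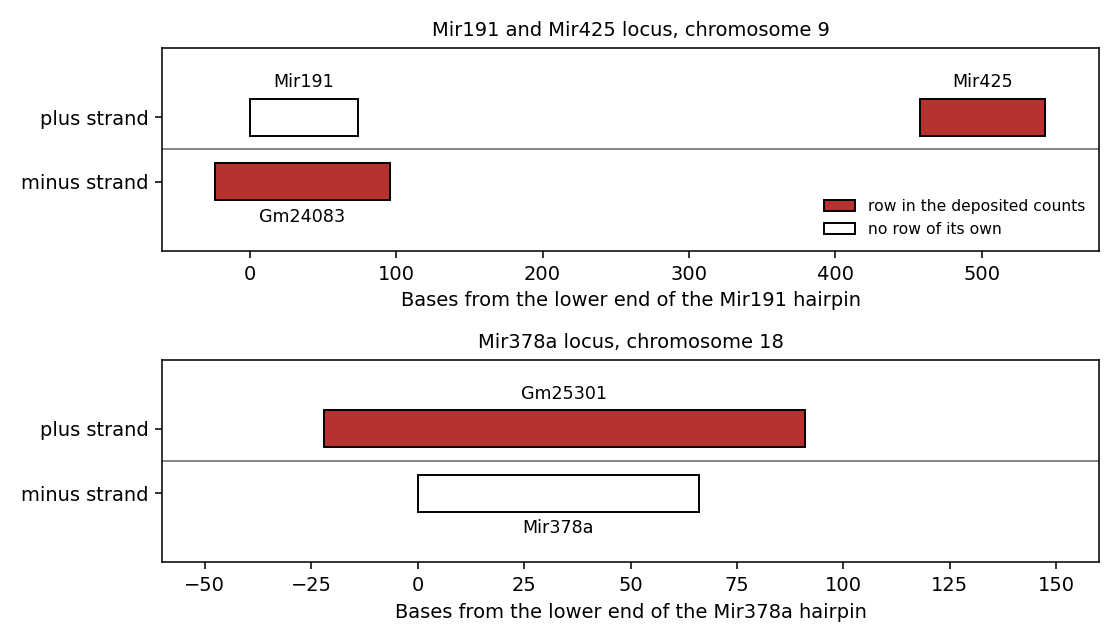
Maps of both loci to scale, with distance in bases from the lower end of the Mir191 hairpin (top) or the Mir378a hairpin (bottom) on the x axis and the strand on the y axis. Filled boxes have a row in the deposited counts and open boxes do not: Gm24083 spans Mir191, and Gm25301 spans Mir378a, each on the other strand.

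All reads of Gm25301 and Gm24083 lay opposite to the annotated gene. Gm25301 had 31964 reads in replicate 1 and 68974 in replicate 2, and 0 on its own strand in either library, which allows an own-strand share of up to 0.00939% and 0.00435%. Gm24083 had 10652 and 26164 reads with 0 on its own strand, which allows up to 0.0282% and 0.0115%. Mir425 showed the reverse, with 4248 and 11794 reads on its own strand and 0 on the other, which allows an opposite share of up to 0.0706% and 0.0254%. These limits are 3 reads of the gene's total and cover counting error only, because reads without molecular identifiers are not independent molecules. The reads of Gm24083 and Mir425 thus lay on the same strand of the genome, that of Mir191 and 4833445I07Rik, and those of Gm25301 on the strand of Mir378a and Ppargc1b.

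**Figure D2:**
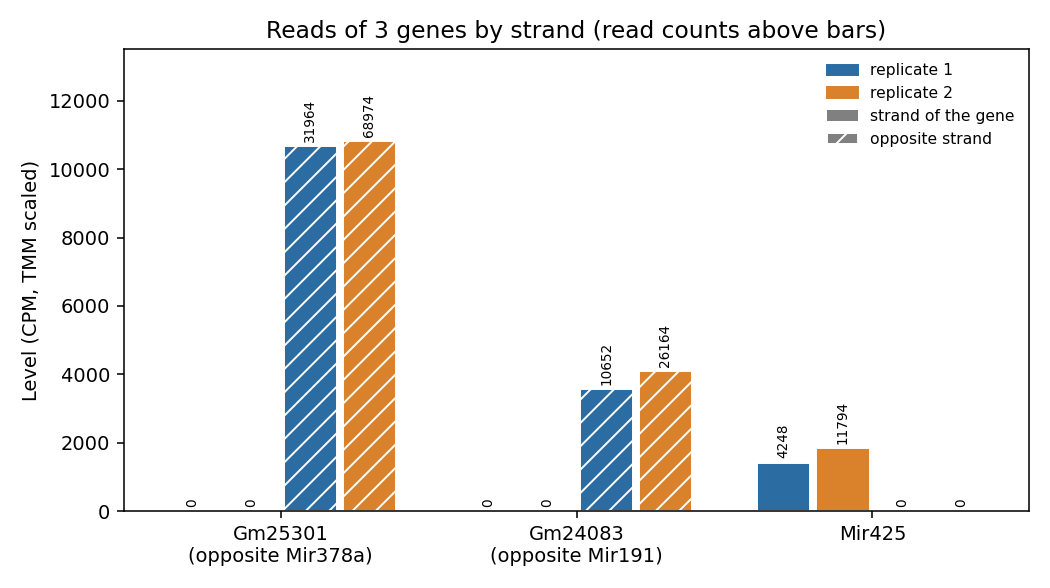
Level on the strand of the gene (plain bars) and on the opposite strand (hatched bars) in CPM after TMM scaling, for replicate 1 and replicate 2 separately, with the read count above each bar. Gm25301 and Gm24083 have reads on the opposite strand only, between 3559 and 10816 CPM, and Mir425 has reads on its own strand only.

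At the Mir378a locus the level hardly differed between the replicates. Replicate 1 had 10680 CPM and replicate 2 had 10816 CPM, with a mean of 10748 ± 96.2 CPM (SD, n = 2), scaled by TMM factors to the reads in counted genes. This was 1.07% of gene reads in replicate 1 (95% Clopper-Pearson interval 1.06 to 1.08) and 1.08% in replicate 2 (1.07 to 1.08). Gm25301 ranked 23 of the 333 detected genes by mean level, 23 in replicate 1 and 25 in replicate 2. It stood below the cartilage miRNA gene Mir140 (12939 ± 309 CPM) by more than the SD of either gene. The next gene down, Mir449a of ciliated epithelium, had 10441 ± 4060 CPM, and that gap was smaller than its SD, so this order is not resolved.

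At the Mir191 locus replicate 1 had 3559 CPM and replicate 2 had 4103 CPM, with a mean of 3831 ± 384 CPM (SD, n = 2). Gm24083 took 0.358% of gene reads in replicate 1 (0.351 to 0.364) and 0.408% in replicate 2 (0.403 to 0.413). It ranked 56 by mean level, next to Mir27b (3971 ± 1055 CPM) and Mir423 (3722 ± 526 CPM), and neither neighbour differed from it beyond the larger SD. Mir423 is itself a common PCR reference.

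Mir425 had 1419 CPM (replicate 1) and 1849 CPM (replicate 2), averaging 1634 ± 304 CPM (SD, n = 2), and ranked 84. Its neighbours in level, Mir467e of the Sfmbt2 repeat family (1639 ± 66.9 CPM) and the PCR reference Mir484 (1600 ± 52.6 CPM), lay within its SD. In each library the order was Gm25301, then Gm24083, then Mir425, and the ranges of the 3 genes over the replicates did not overlap. The levels are reads per hairpin, not divided by length, since the libraries hold RNAs in a size class below 30 (no unit given) per the labels and a read of a mature miRNA does not scale with the length of its hairpin.

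The reads of Mir191 and Mir425 were then set against each other within each library, where no scaling is needed. Gm24083 carried 2.51 reads for each read of Mir425 in replicate 1 (95% exact interval 2.42 to 2.60) and 2.22 in replicate 2 (2.17 to 2.27), a mean of 2.36 ± 0.204 (SD, n = 2). The ratio was lower in replicate 2 by a log2 change of −0.18 (Fisher's exact test, two-sided, p adjusted over 3 pairs = 7.80e-09). Gm25301 carried 3.00 reads for each read of Gm24083 in replicate 1 and 2.64 in replicate 2, a log2 change of −0.19 (Fisher's exact test, adjusted p = 2.80e-22). Against Mir425 the same ratio went from 7.52 to 5.85, a log2 change of −0.36 (Fisher's exact test, adjusted p = 3.18e-40). All 3 ratios differed between these libraries by more than counting error, but with 1 library on each side the tests compare libraries and not populations of embryos.

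The difference within the Mir191 and Mir425 locus was below the median of neighbouring detected miRNA genes, which were not matched for depth. Among detected genes, 73 pairs of neighbours had reads on the same strand with at most 1000 bases between them. The log2 ratio of replicate 2 over replicate 1 differed by 0.18 between Gm24083 and Mir425, against a median of 0.26 over the 73 pairs and a range of 0.01 to 1.44. In 24 of the pairs, this pair included, the difference was at or below 0.18. Their levels differed 2.34-fold, and the median pair differed 7.11-fold, with 20 pairs at or below 2.34-fold. Pairs of a cluster share a gene with the next pair and are not independent, so these are descriptions.

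Between the replicates, Gm24083 and Mir425 were higher in replicate 2, and Gm25301 was not called. The comparison used a two-sided exact binomial test of each gene's reads on either strand, with Benjamini-Hochberg adjustment over the 333 detected genes. It called 178 genes, or 53.5%, with 25.8% higher in replicate 2 and 27.6% higher in replicate 1. With at least 100 reads in each library, which the 3 genes have, 165 of 247 genes were called. The share called thus depends on depth, and 2 called of 3 is not read as a result. Gm25301 had a log2 ratio of 0.02 (95% exact interval −0.00090 to 0.04, exact binomial adjusted p = 0.108), among the smallest, since 5.11% of the genes had a ratio of this size or less. Its direction depended on the scaling: with size factors from DESeq2 it was called higher in replicate 2 (0.04, exact binomial adjusted p = 3.27e-05), and when scaled to all reads of the library it was lower (−0.16). That last scaling moved the median of all genes by −0.18. Relative to the median Gm25301 stood at 0.03 under each of these scalings, as it must, because scaling shifts all genes alike.

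Replicate 2 exceeded replicate 1 at Gm24083, with a log2 ratio of 0.21 (0.17 to 0.24, exact binomial adjusted p = 5.89e-35), or 1.15-fold. This is close to the median size of 0.21 over all detected genes. Scaled to all reads of the library the log2 ratio was 0.03 and no longer called (exact binomial adjusted p = 0.159). It stood 0.22 above the median of all genes under either scaling, again because scaling shifts all genes alike. Mir425 was higher by 0.38 (0.33 to 0.43, exact binomial adjusted p = 1.82e-50), or 1.30-fold, and 73.0% of the genes had a ratio of this size or less. None of the 3 passed 1.5-fold, which 8.11% of the detected genes did with a call. The SD of the log2 ratio over all detected genes was 0.45, larger than each of the 3 ratios. With 1 library on each side these calls cover counting error only, and the smallest one-sided p of an exact permutation is 0.5.

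**Figure D3:**
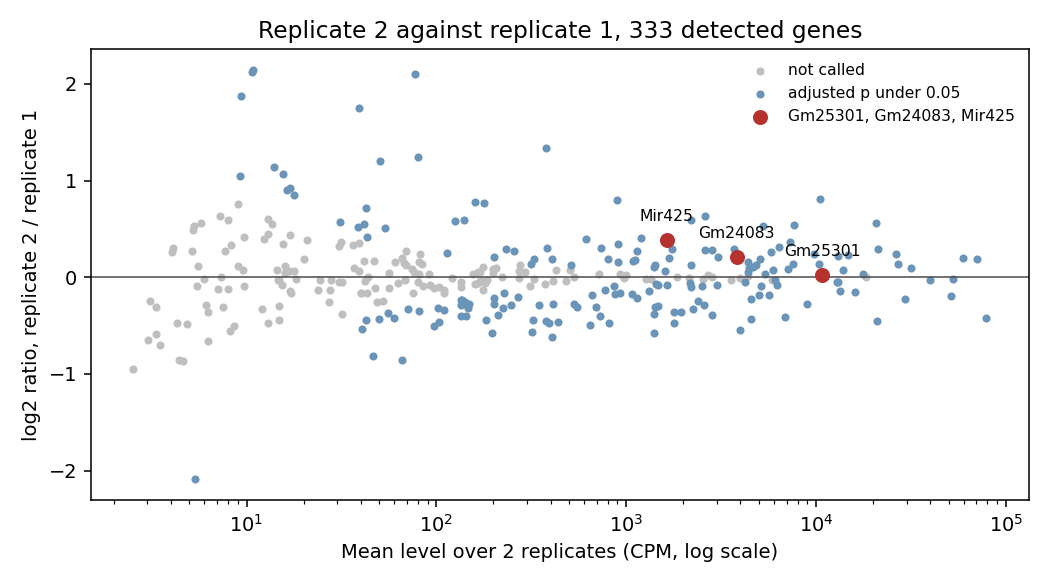
Log2 ratio of replicate 2 over replicate 1 (y axis) against mean level in CPM on a log scale (x axis) for 333 detected genes, with the 3 genes in red and their 95% exact intervals, which are mostly smaller than the points. Gm25301 lies at 0.02, Gm24083 at 0.21 and Mir425 at 0.38, all within the cloud of other genes.

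The remaining genes of the Mir378 family had few reads beside those at the Mir378a locus. Mir378d had 52 and 116 reads (17.8 ± 0.577 CPM), Mir378c had 34 and 135 reads (16.3 ± 6.94 CPM), and Mir378b had 7 and 23 reads (2.97 ± 0.896 CPM; SD, n = 2) and was below the detection minimum in replicate 1. Gm25301 thus had 615 times the reads of Mir378d in replicate 1 and 595 times in replicate 2, and 940 and 511 times those of Mir378c. Mir378c was called higher in replicate 2 with a log2 ratio of 0.90 (0.35 to 1.49, exact binomial adjusted p = 0.00203), while Mir378d was not called (0.07, −0.42 to 0.57). The 4 counted genes of the family gave 1 call among 3 detected, against 53.5% called of all detected genes, with a median log2 ratio of 0.07 against −0.01 over all detected genes. The mature miRNAs of Mir378b, Mir378c and Mir378d have 3 different seeds in the RefSeq table. These seeds were not compared with those of Mir378a.

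Among annotated miRNA genes, each read on its own strand, exact shared stretches of 20 bases were found for Mir378a but not for Mir191 or Mir425. The rest of the genome, inexact copies and reverse complements were not part of this search. The Mir378a hairpin shares a stretch of 20 bases with 1 other annotated miRNA gene, Mir378c, in which that stretch belongs to the mature miRNA. Reads that map to several places are on a separate line of the deposited counts (30.6% of all reads in replicate 1 and 29.7% in replicate 2) and were given to no gene. The counts of Gm25301 and Mir378c are therefore uncertain. Mir191 and Mir425 share no such stretch with the own-strand sequence of another annotated miRNA gene.

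The split by strand set Gm25301 and Gm24083 apart from nearly all detected genes. Opposite-strand reads made up 3.30% of gene reads in replicate 1 and 3.36% in replicate 2, and 99.7% and 99.6% of them fell in 10 genes, 3.00% of those detected, each with at least 90% of its reads on the opposite strand in both libraries. Gm25301 alone held 32.5% of all opposite-strand reads in replicate 1 and 32.0% in replicate 2, and Gm24083 held 10.8% and 12.2%. Together they came to 1.43% and 1.48% of all gene reads. Just inside this limit were Mir299b, at 99.8% and 99.9%, and Gm24111, at 99.8% in replicate 2, and the highest outside was Mir3074-1, at 71.1% and 71.9%. Of the 322 detected genes that were mostly on their own strand, 293, Mir425 among them, had no opposite-strand read in either library. In these 322 genes opposite reads were 0.00292% of reads in replicate 1 and 0.00365% in replicate 2.

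**Figure D4:**
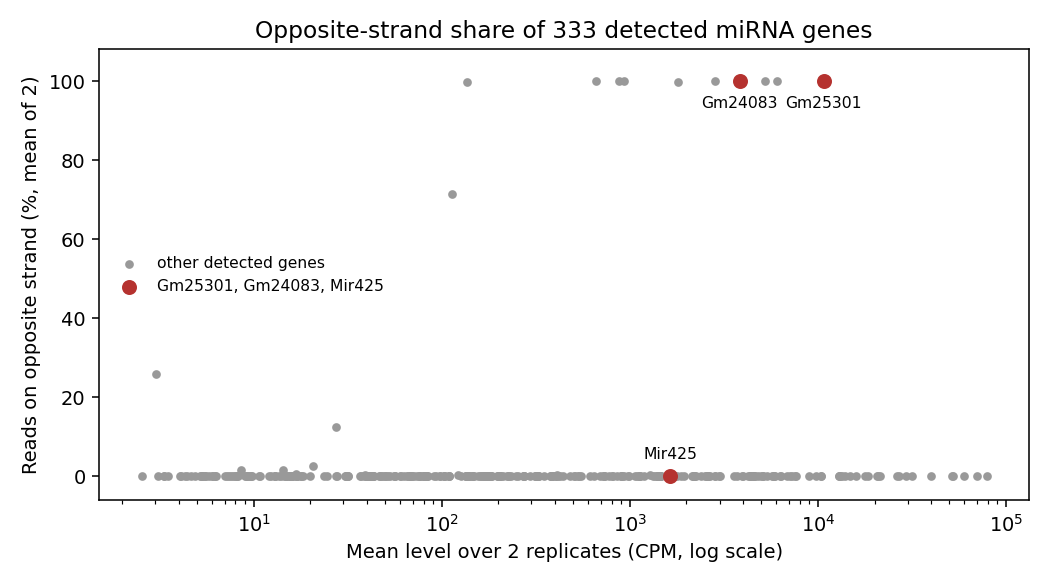
Share of reads on the opposite strand (y axis, percent, mean of 2 replicates) against mean level in CPM on a log scale (x axis) for 333 detected genes. Gm24083 and Gm25301, in red, lie with 8 other genes near 100%, and Mir425 lies at 0 with most genes.

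All 10 of these genes have a miRNA annotated on the other strand in GENCODE M21, and in none of them is that miRNA among the counted genes, which holds for all 32 counted genes with a miRNA annotated on the other strand. By mean level, Gm25301 was the highest of the 10. Gm25927, opposite Mirlet7e, followed with 6092 ± 97.8 CPM and Gm24321, opposite Mir409, with 5264 ± 1346 CPM, ahead of Gm24083. Gm25252 (opposite Mir376a) had 2849 ± 548 CPM, Mir299b (opposite Mir299a) 1793 ± 317 CPM, and Gm25750 (opposite Mir380) 928 ± 76.2 CPM. Mir497b, Mir142b and Gm24111, opposite Mir497, Mir142 and Mirlet7f-1, ranged from 877 ± 75.4 to 136 ± 3.33 CPM (all SD, n = 2). Between the replicates 2 of the 10 were called higher in replicate 2, Gm24321 and Gm24083, 6 were called higher in replicate 1, and Gm25301 and Gm24111 were not called. Over all detected genes 25.8% were called higher in replicate 2 and 27.6% higher in replicate 1. Of those 32 genes 25 were detected, and 10 of the 25 had at least 90% opposite reads.

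Counting only the strand of the gene removed both Mir378a and Mir191 from the data. Gm25301 and Gm24083 then stood at 0 CPM in both replicates, and Mir425 had 1467 CPM (replicate 1) and 1914 CPM (replicate 2).

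Mir191 and Mir425 were also read beside other miRNAs that serve as references because they are broadly expressed. The list names Gm24083 and Mir191 as separate entries among 24, of which 22 have a row and 21 were detected. Mir191, read through Gm24083, and Mir24-1 have no row. Mir3074-1, which lies opposite Mir24-1 and is not in the list, had 221 opposite-strand reads in replicate 1 and 569 in replicate 2. In the list 8 genes were called higher in replicate 2, 7 were called higher in replicate 1 and 6 were not called, and the median log2 ratio was 0.00 against −0.01 over all detected genes. That is 15 of 21 called, against 53.5% of all detected genes. With a filter of 100 reads 15 of 19 were called, against 165 of the 247 genes that passed it. The exact intervals of Mir425 (0.33 to 0.43) and Mir423 (0.29, 0.26 to 0.32) lay above that of Gm24083. Those of Mir26a-1, Mir103-2, Mir16-2 (0.02 to 0.25) and Mir16-1 (0.08 to 0.18) overlapped it, so the order of these genes and Gm24083 is not resolved. Among the most abundant of the list, Mir30e (13419 ± 936 CPM) and Mir93 (6258 ± 257 CPM) were called higher in replicate 1, with log2 ratios of −0.14 and −0.08. Mir652 (7589 ± 493 CPM; 0.13) and Mir151 (4816 ± 295 CPM; 0.13) were called higher in replicate 2. Mir361 differed least, with 2139 and 2133 CPM and a log2 ratio of −0.0037 (−0.05 to 0.04), and was not called. The largest difference among the genes called, that of Mir425, was 1.30-fold.

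**Figure D5:**
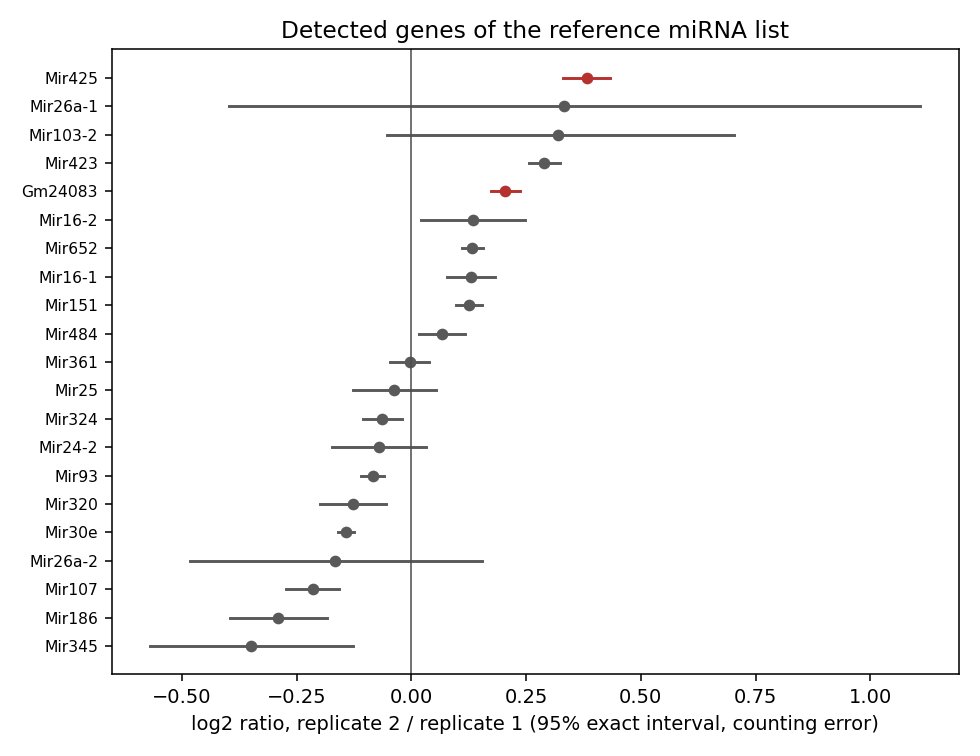
Log2 ratio of replicate 2 over replicate 1 (x axis) with 95% exact intervals for counting error, for the 21 detected genes of the reference list (y axis), with Gm24083 and Mir425 in red. Mir425 has the highest ratio of the list at 0.38 and Gm24083 lies at 0.21.

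Genes linked to energy metabolism and brown fat, the setting in which Mir378a is best known, were called about as often as detected genes as a whole. Of 26 genes listed 25 have a row and 18 were detected, of which 4 were called higher in replicate 2, 6 were called higher in replicate 1 and 8, Gm25301 among them, were not called, which is 10 of 18 called against 53.5% of all detected genes. The median log2 ratio was −0.10 against −0.01 over all detected genes. Gm25301 was the most abundant of the list. Next came Mir106b (4558 ± 496 CPM; −0.22), Mir27b (3971 ± 1055 CPM; −0.55), and the endocrine Mir375 (2184 ± 624 CPM; 0.59), then Mir455 (1946 ± 336 CPM; −0.35) and Mir107 (1138 ± 120 CPM; −0.21; all SD, n = 2), and the exact binomial test called each of these 5. Mir133a-1 and Mir133a-2 had no read in either library, and their values are uncertain because they are near-identical copies.

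Markers of the cell types in the tissue differed between the replicates as well, and their part in the values above was not tested. All 7 epithelial genes were detected and summed to 151799 CPM (replicate 1) and 128693 CPM (replicate 2), with 4 called higher in replicate 2 and 3 called higher in replicate 1, and a median log2 ratio of 0.11. All 4 mesenchymal genes were detected and summed to 18060 and 16593 CPM, with 2 called higher in replicate 2, 1 called higher in replicate 1 and a median of 0.24. The sums were lower in replicate 2 while these medians were above 0, and Mir203, Mir205 and Mir214, called higher in replicate 1, held much of the sums. The 6 counted skeletal muscle genes summed to 7989 and 6009 CPM, a log2 change of −0.41, with 3 detected and Mir133a-1 and Mir133a-2 at 0. Mir206 held most of this sum, with 7850 and 5903 CPM (−0.41). Mir133b was not called (−0.17), and Mir499, at 46.2 CPM on average, was called higher in replicate 1 (−0.81). The 5 counted blood cell genes were all detected and summed to 761 and 837 CPM, a log2 change of 0.14. Mir142, listed with them, has no row, and Mir142b, whose opposite-strand reads are those of Mir142, had 706 and 620 CPM, a log2 ratio of −0.19. The red cell genes Mir451a (0.59) and Mir144 (−0.86) went opposite ways. Cartilage genes summed to 15342 and 14429 CPM (2 of 2 detected), endothelial Mir126a stood at 24124 and 28452 CPM (0.24), and smooth muscle genes summed to 17852 and 18256 CPM (2 of 2 detected). The smooth muscle genes went opposite ways. Mir143, which held most of the sum (17564 and 18006 CPM), was called higher in replicate 2 (0.04), and Mir145a was called higher in replicate 1 (−0.21). Of 6 counted neural genes 1 was detected, and the list summed to 196 and 210 CPM with Mir124a-1 and Mir124a-2 at 0. The zeros of Mir124a-1 and Mir124a-2 are uncertain too, since these genes are near-identical copies. Other genes numbered as copies of the same miRNA, such as Mir9-3, Mir199a-1, Mir103-1, Mir26a-1 and Mir365-1, may also lose reads that map to several places. How much they lose was not tested, so their low values are uncertain, as are the detected counts and sums of the lists that hold them. The liver gene Mir122 stood at 30.4 and 70.1 CPM (1.20).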

How the data were processed

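MicroRNA sequencing gave 1 library for each of 2 biological replicates. Counts were deposited by the authors as raw reads for each miRNA gene on either strand, its own strand and the opposite strand, on mm10 with GENCODE M4, per the deposited file list. No aligner or counter is given in the sources used here. Either-strand counts equalled own plus opposite in all 1973 genes. Lines that name no gene (unmapped, mapped to several places, outside genes) stayed out of library sizes and took 49.0% and 54.5% of reads in replicates 1 and 2.

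Names and positions came from GENCODE M21 (mm10), matched for 1894 genes. Scaling to CPM (reads per 1000000 in genes) used TMM factors from edgeR 4.0.16 under R 4.3.3. Each detected gene was compared by a two-sided exact binomial test (scipy 1.17.1, Python 3.11.15), Benjamini-Hochberg adjusted, threshold 0.05, because 1 library against 1 allows no quasi-likelihood fit. The test was tried on simulated counts drawn with counting error only, which is the error it assumes. That trial therefore does not cover replicates with more spread. Alternatives were total counts, DESeq2 1.42.0 size factors, all reads, Mir203 left out, other filters, strand columns and single replicates. The genes, lists and tests were chosen with earlier results of these data known. Named genes were the 3 genes, all genes at least 90% opposite, the detected Mir378 family, up to 6 per list by level, and the neighbours in level. Mir489, Mir378b and the remaining marker and list genes named were chosen after their values were seen.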

Additional observations from a re-analysis of the deposited data

How the results depend on the processing

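The strand shares were the same in either replicate alone. The number of opposite-strand genes kept within 1.5 times in either replicate alone and under the other shares tried. With 2 replicates each value lies within 1 SD of the mean by construction. Either replicate alone is therefore no check of the levels or of the ratio of Gm24083 to Mir425 reads. Under total counts the level of each gene kept within 1 SD, and the settings that departed were as follows. Scaled to all reads of the library, Gm25301, Gm24083 and Mir425 stood at 5185, 1841 and 782 CPM, the log2 ratio of Gm25301 turned to −0.16, that of Gm24083 fell to 0.026 without a call, and 2 Mir378 family genes were called. With DESeq2 size factors Gm25301 was called at 0.043 and 2 family genes were called. With Mir203 left out Gm25301 stood at 11672 CPM. With own-strand reads Gm25301 and Gm24083 were at 0, and with opposite-strand reads Mir425 was at 0. Opposite-strand reads put Gm25301 at 322895 CPM and Gm24083 at 115175 CPM of these reads alone, called Gm25301 at 0.051, and called 9 genes in all, 1 in the reference list and 1 in the metabolism list, because 14 genes were left to test. With a filter of 100 reads 0 family genes were called, because 1 was left (0 at an unadjusted p under 0.05). Other causes were not tested. No paired analysis was possible because there is 1 group. Depth limits Mir378b, Mir378c, Mir378d and Mir489, with at most 135 reads each.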
